A study of Leptinotarsa decemlineata with 6 samples.

Results

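The genes described here are 97 genes of the Colorado potato beetle (CPB, Leptinotarsa decemlineata) whose best Swissprot match carries a name from the synapse, from a transmitter receptor or from the biogenic amine system. They were found by searching the Swissprot names for words such as synap, acetylcholine receptor, glutamate receptor, dopamine, octopamine, vesicular, neurexin and neuroligin. A gene was kept where its mean reached at least 1 TPM in the antibiotic group or in the non-treatment group. TPM is the number of sequenced fragments per length of transcript, scaled so that each library sums to 1000000, and levels of different genes can therefore be set side by side. In all 236706 genes were listed, of which 185 carried such a name, 88 of these stayed below the level and 8 of those 88 were listed at 0 TPM in every library. The genes were thus selected on their mean TPM in these libraries, and that they were expressed is not a result. Just below the level lay an NMDA 3A glutamate receptor (DN63263_c1_g2, 0.777 TPM in its higher group), serotonin receptor 2B (DN59130_c1_g7, 0.778 TPM) and serotonin receptor 4 (DN50335_c0_g1, 0.831 TPM). Just above it lay an SV2B gene (DN59809_c0_g1, 1.14 TPM) and neuroligin genes DN63180_c2_g5 (1.15 TPM) and DN51539_c5_g3 (1.18 TPM). Gene identifiers are given without the prefix TRINITY_ that all of them share.

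The study compared heads of adult wild-type CPBs of an antibiotic group with those of a non-treatment group, 3 RNA-seq libraries each, to ask how the gut microbiota bears on the olfactory system. According to the methods, antibiotic CPBs ate potato leaves soaked in tetracycline, penicillin, ofloxacin, ciprofloxacin and ampicillin with Tween-20 for 3 days, and control CPBs ate leaves soaked in sterile water with Tween-20. The labels call the non-treatment libraries AA, while the study's own material sets the antibiotic libraries, AH, beside a set called HH that was not analysed here, so whether the AA libraries are those control heads is not settled by the sources. The concentration given to the sequenced beetles, their sex and the number of heads in each library are stated nowhere in the sources. The labels call the material head olfactory cells and the methods call it whole heads. Nothing says that replicates came from separate cultures, so p-values measure only the spread between these libraries. Estimated fragment counts summed to 33613953 and 31928906 in antibiotic replicates 2 and 3, and to between 25397497 and 31185289 in the non-treatment libraries.

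Chemical synapses pass signals from a neuron to another neuron or to a muscle. The transmitter is loaded into vesicles by vesicular transporters, synaptotagmins and SNARE proteins fuse the vesicle with the membrane when calcium enters, and receptors on the receiving cell open an ion channel or start a G protein signal. In insects acetylcholine is the main excitatory transmitter of the brain and of sensory neurons, glutamate excites the muscles, GABA inhibits, and octopamine, tyramine, dopamine and serotonin set arousal, feeding and the response to odours. Dopamine also serves outside the nervous system, where its N-acetylated form is used to tan and colour the cuticle.

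The names are those of the best match in another species in nearly every case. In the protein database NR the best match of 74 of the 97 genes was from the beetle Tribolium castaneum and that of 8 was from the CPB itself. The 97 genes held 64 different protein names, and 8 of them lay in pairs within 1 assembly cluster (DN51060_c6, DN58253_c3, DN63180_c2 and DN59142_c5), where fragments of a gene may be split between both entries. All 14 ionotropic glutamate receptors carried a ligand channel domain, 6 of the 7 nicotinic receptor genes carried a channel domain, and all 8 neuroligin-named genes carried the carboxylesterase domain that neuroligins share with esterases. Only 4 of the 10 genes named synaptic vesicle glycoprotein 2B (SV2B) had an annotated sugar transporter domain, the fold of the large family of membrane transporters to which SV2 proteins belong. The word vesicular also drew in 7 charged multivesicular body proteins, which bend membranes in endosomes, and GABA receptor-associated protein, whose best known role is in autophagy.

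Tissue markers were not alike in the groups, which the labels do not show. Eye genes summed to between 444 and 612 TPM in antibiotic libraries and to between 116 and 132 TPM in non-treatment libraries, with 8 of 21 tested genes higher and 1 lower. The defining eye gene rhodopsin (DN52274_c7_g1) lay at 161, 212 and 138 TPM in antibiotic libraries, against 0.592, 0.639 and 0.252 TPM in non-treatment libraries, and an arrestin homolog of photoreceptors (DN59620_c3_g2) at 107, 125 and 89.7 TPM, against 0.292, 0.553 and 0.552 TPM. The 7 neuron genes, which include synapsin-1 and synaptotagmin 1, summed to between 197 and 233 TPM in antibiotic and to between 124 and 138 TPM in non-treatment libraries. Of the 6 tested neuron genes 2 were higher and 4 were not called. Glia genes summed to between 693 and 867 TPM in antibiotic and to between 412 and 565 TPM in non-treatment libraries, and muscle genes to between 29785 and 32955 TPM, against between 7800 and 12243 TPM. Most of the glia sum came from genes named glutamine synthetase, with 615 to 779 TPM in antibiotic and 370 to 503 TPM in non-treatment libraries. Of the 6 tested glia genes 2 were higher and 4 were not called, and of the 30 tested muscle genes 17 were higher and 13 were not called. Gut genes summed to between 5358 and 7971 TPM in antibiotic and to between 10853 and 29770 TPM in non-treatment libraries. Of 124 tested gut genes 51 were lower and 3 higher, and of 53 tested testis genes 36 were lower and 2 higher. Testis sums overlapped, at 500 to 715 TPM in antibiotic and 563 to 1685 TPM in non-treatment libraries. Head and antenna genes summed to 8.88 to 12.4 TPM in antibiotic and 6.21 to 7.34 TPM in non-treatment libraries, and the 1 tested was not called. Of all 33919 genes tested, 2.88% were higher and 7.26% lower. Genes of the abdominal homeobox cluster summed to between 0.0651 and 0.138 TPM in antibiotic and to between 2.71 and 3.95 TPM in non-treatment libraries. Of the 32 eye genes, 5 were at 0 in all antibiotic and 6 in all non-treatment libraries, and of the 56 muscle genes 19 in each. Libraries of a group had a rank correlation over the tested genes of 0.814 to 0.869, and libraries of different groups one of 0.60 to 0.721. Treatment and the tissue in the libraries cannot be told apart in this design, and in bulk RNA fewer cells of a type cannot be told apart from less RNA per cell.

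Of the 97 genes, 78 had a mean of at least 1 TPM in both groups, and the comparison of the groups below rests on these. Another 14 reached the level in the antibiotic group only and 5 in the non-treatment group only, and since such genes had to differ to be taken up, their values are given without a test. Among the 78, antibiotic CPBs had 13 genes higher and 5 lower (limma on log2(TPM + 1), Benjamini-Hochberg adjusted p under 0.05 over all 33919 genes tested), or 23.1% called, and 60 were not called. One of the 5, synaptotagmin-15, had higher counts in antibiotic libraries and is given no direction, as described with that gene, and with it left out 13 of 77 genes were higher and 4 lower, or 22.1% called. The background was 5.5% of the 22882 genes with the same level in both groups, with 2.83% higher and 2.67% lower. The antibiotic and non-treatment libraries did not overlap in 25 of the 78 genes on the high side and in 7 on the low side, where 10.3% and 11.5% of the 22882 genes did so (21.9% in either direction). The median difference was 0.17 on the log2 scale over the 78 genes and -0.02 over the 22882 genes. With each library left out in turn between 9 and 13 of the 78 genes were higher and between 2 and 5 lower, the lowest count of lower genes without antibiotic replicate 1. In the background that includes genes at the level in only 1 group, 10.1% of 33919 genes were called, with 2.88% higher and 7.26% lower, and 30.3% did not overlap, with 10.5% on the high and 19.8% on the low side. The 19 genes at the level in 1 group belong to that wider background, and their calls are not read against it.

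**Figure D1:**
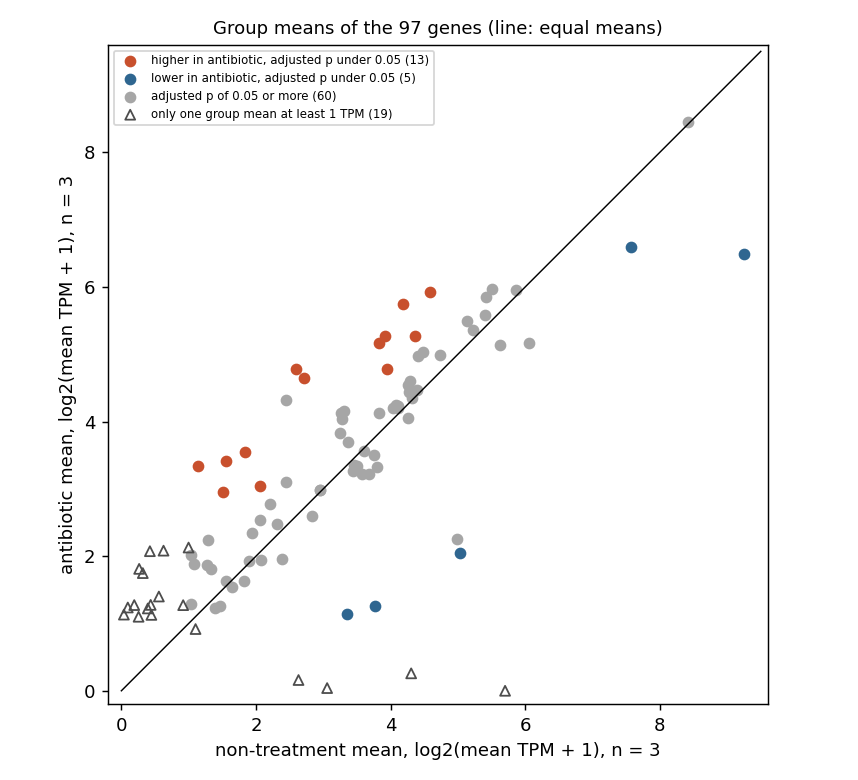
Mean expression of the 97 genes in the antibiotic group (vertical axis) and in the non-treatment group (horizontal axis), both as log2(mean TPM + 1) over 3 libraries, with the line of equal means. Filled points are the 78 genes with both means at 1 TPM or more (13 higher in orange, 5 lower in blue, 60 not called in grey) and open triangles the 19 genes with only 1 mean at that level.

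By role, glutamate receptors made up 7 of the 13 higher genes, and no glutamate or acetylcholine receptor at the level in both groups was called lower. The 15 genes of the remaining class (multivesicular body proteins, autophagy and trafficking proteins and others) and the 6 adhesion genes held no call. Vesicle membrane proteins were called in both directions, with 2 higher and 2 lower of 17.

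**Figure D2:**
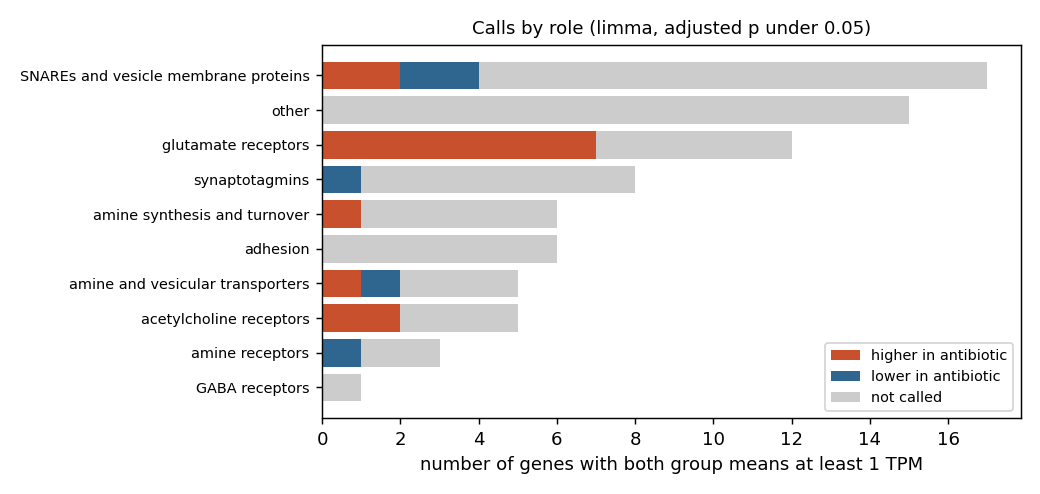
Number of genes with both group means at 1 TPM or more in each role (horizontal bars, starting at 0), split into higher in antibiotic (orange), lower in antibiotic (blue) and not called (grey). Glutamate receptors show 7 higher of 12, and the class of other genes shows 15 genes and no call.

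Ionotropic glutamate receptors, channels that open when glutamate binds, were higher in antibiotic CPBs in most cases. In insects the family also holds relatives that sensory neurons use to detect odours and acids, and a Swissprot name does not separate these. Of the 12 glutamate receptor genes at the level in both groups, 7 were higher, 11 had a positive difference and the median difference was 1.10 on the log2 scale. The highest of them named kainate 3 (DN54758_c2_g3) lay at 60.8, 59.995 and 57.8 TPM in antibiotic replicates 1, 2 and 3, against 23.0, 18.2 and 28.1 TPM in the non-treatment libraries. All antibiotic libraries lay above all non-treatment libraries, and the difference was 1.35 ± 0.21 (SE) on the log2(TPM + 1) scale, with an adjusted p of 0.00687.

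A second kainate 3 gene (DN51359_c6_g1) had 52.3, 49.3 and 56.1 TPM in antibiotic libraries, against 16.9, 16.3 and 18.4 TPM in non-treatment libraries. The spread within each group was small beside the gap, and the difference was 1.56 ± 0.17 (log2 scale, adjusted p = 0.00201). The kainate 2 gene with the largest difference (DN64662_c6_g1) lay at 28.0, 20.0 and 31.5 TPM in antibiotic libraries, against 5.18, 5.0 and 5.0 TPM in non-treatment libraries. The groups were well apart, 5.24-fold on the means, and the difference was 2.16 ± 0.22 (adjusted p = 0.00149).

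The other 4 higher genes were all named kainate 2. DN54392_c6_g1 averaged 34.9 ± 2.42 TPM in antibiotic and 13.2 ± 2.65 TPM in non-treatment CPBs (SD, n = 3 each), with a difference of 1.35 and an adjusted p of 0.00644. DN55036_c9_g2 averaged 6.77 ± 1.18 TPM in antibiotic and 1.84 ± 0.52 TPM in non-treatment CPBs, with a difference of 1.46 and an adjusted p of 0.00958. Both calls held with each library left out. DN58228_c1_g1 averaged 37.6 ± 9.62 TPM in antibiotic and 14.1 ± 6.44 TPM in non-treatment CPBs (difference 1.41, adjusted p = 0.0357). DN51974_c5_g1 averaged 26.4 ± 3.04 TPM in antibiotic and 14.3 ± 2.80 TPM in non-treatment CPBs (difference 0.85, adjusted p = 0.0465). Neither of these calls was firm. With single libraries left out the adjusted p ran to 0.128 for DN58228_c1_g1 and to 0.174 for DN51974_c5_g1, both without antibiotic replicate 3, and each call was kept only without non-treatment replicate 3. The count of 7 higher glutamate receptors was 5 without any one of the other libraries and 5 in edgeR on 5 libraries.

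The most abundant receptor of all did not follow them. A gene that Swissprot names delta-1 and NR kainate 1 (DN60078_c4_g1) lay at 294, 353 and 396 TPM in antibiotic libraries, against 385, 265 and 370 TPM in non-treatment libraries. The groups overlapped, the difference was 0.04 ± 0.24 and the adjusted p was 0.940. It alone made up between 17.5% and 20.4% of the summed TPM of the 97 genes in antibiotic and between 13% and 19.7% in non-treatment libraries. A kainate 1 gene (DN57666_c1_g2) averaged 15.5 ± 2.97 TPM in antibiotic and 8.66 ± 1.95 TPM in non-treatment CPBs without overlap, and it was not called (adjusted p = 0.0975).

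The 12 kainate-named genes together summed to between 250 and 288 TPM in antibiotic libraries and to between 91.2 and 120 TPM in non-treatment libraries. Of these 9 were at the level in both groups. The others were taken up through their antibiotic level, so the sum is a description and not a result. The antibiotic group alone brought 4 low glutamate receptor genes to the level, of which DN52993_c2_g1 is named glutamate receptor 1 and not kainate. Their means were 3.37 TPM in antibiotic and 0.998 TPM in non-treatment CPBs for DN62045_c1_g1 and 1.42 and 0.890 TPM for DN62792_c0_g1. They were 1.64 and 0.472 TPM for DN52993_c2_g1 and 1.33 and 0.313 TPM for DN62260_c1_g2. A further kainate 2 gene at the level in both groups, DN51978_c3_g2, averaged 2.51 ± 0.95 TPM in antibiotic and 1.51 ± 0.70 TPM in non-treatment CPBs and overlapped. Metabotropic glutamate receptors, which signal through G proteins, were low and not called. DN53516_c3_g1 averaged 2.64 ± 0.26 TPM in antibiotic and 1.41 ± 0.48 TPM in non-treatment CPBs (adjusted p = 0.184), and DN52282_c7_g4 averaged 1.92 ± 0.54 TPM and 2.14 ± 0.45 TPM in these groups (adjusted p = 0.825). Muscle and eye gene sums were higher in the same libraries as the kainate-named genes, with muscle sums of 29785 to 32955 TPM in antibiotic against 7800 to 12243 TPM in non-treatment libraries, and the part of tissue makeup in these differences was not tested.

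**Figure D3:**
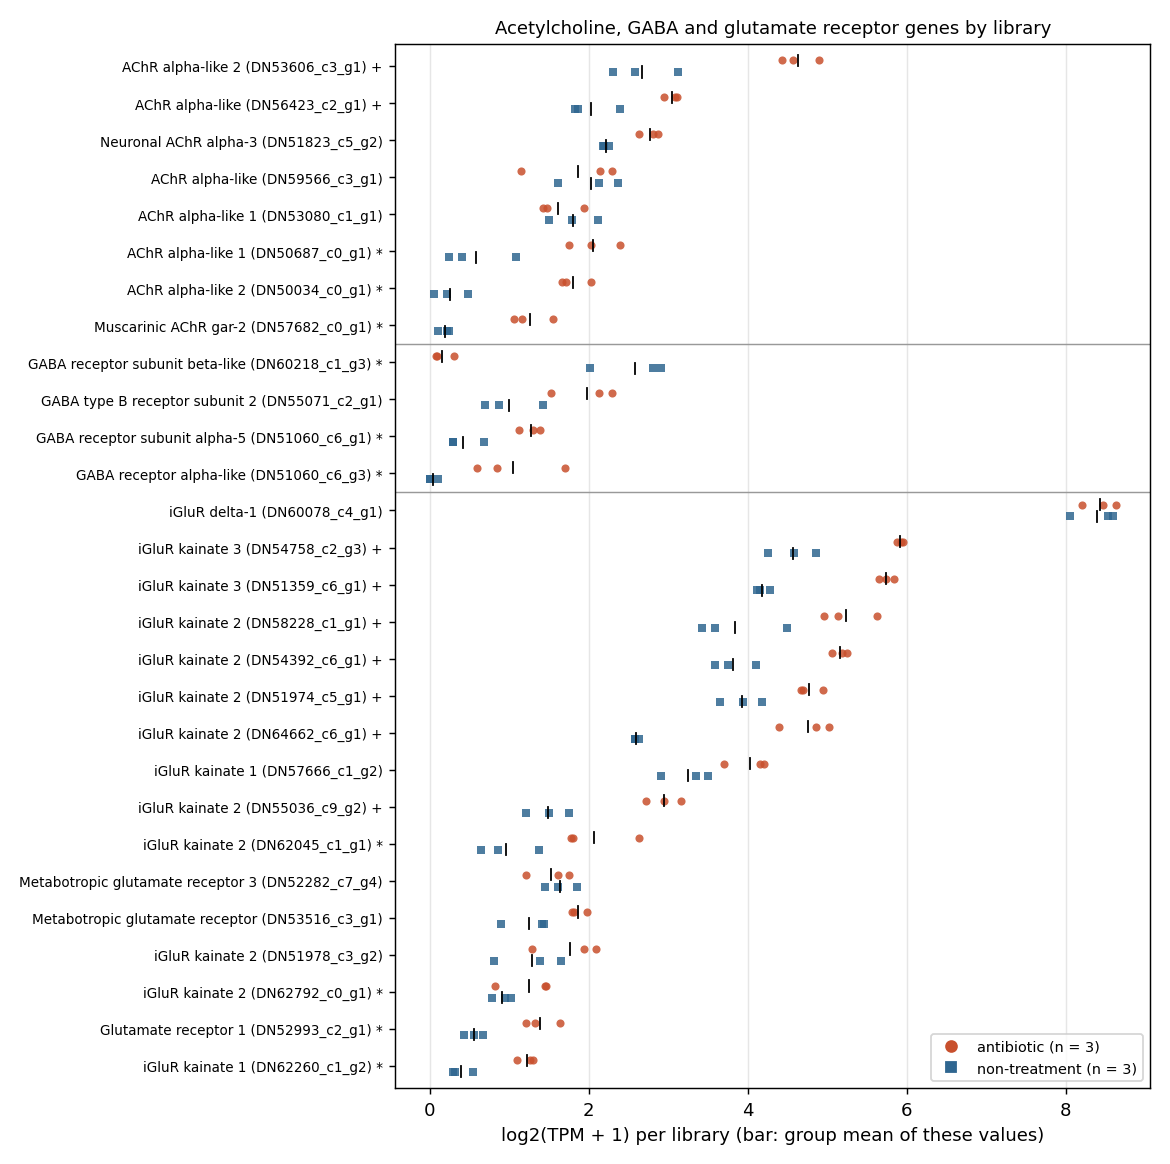
Acetylcholine, GABA and glutamate receptor genes, one row per gene, with log2(TPM + 1) in each antibiotic library (orange circles) and each non-treatment library (blue squares) and a bar at each group mean. A plus marks genes higher in antibiotic and a minus genes lower, among those with both group means at 1 TPM or more, and an asterisk marks genes at that level in only 1 group. Most kainate rows show the circles to the right of the squares, and the delta-1 row at the right shows both groups together.

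Nicotinic acetylcholine receptors, the channels through which acetylcholine excites insect neurons and which neonicotinoid insecticides target, were higher in the antibiotic group in 2 of 5 genes at the level in both groups. The gene of the highest level, alpha-like 2 (DN53606_c3_g1, alpha 10 in NR), lay at 20.7, 28.9 and 22.7 TPM in antibiotic libraries, against 4.99, 7.70 and 3.95 TPM in non-treatment libraries. Every antibiotic library lay above every non-treatment library, 4.34-fold on the means, with a difference of 1.97 ± 0.27 (adjusted p = 0.0041). The alpha-like gene that NR names alpha 3 (DN56423_c2_g1) had 7.49, 7.63 and 6.72 TPM in antibiotic libraries, against 2.65, 4.27 and 2.54 TPM in non-treatment libraries. These did not overlap either, and the difference was 1.02 ± 0.23 (adjusted p = 0.0341), a call that was kept only without non-treatment replicate 2 when single libraries were left out (highest adjusted p 0.106, without antibiotic replicate 2).

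Neuronal alpha-3 (DN51823_c5_g2, alpha 9 in NR) was not called at 6.32, 6.03 and 5.20 TPM in antibiotic libraries, against 3.58, 3.55 and 3.78 TPM in non-treatment libraries, although the groups did not overlap (difference 0.56 ± 0.20, adjusted p = 0.129). The alpha-like 1 gene that NR names alpha4 (DN53080_c1_g1) had means of 2.10 ± 0.64 TPM in antibiotic and 2.53 ± 0.75 TPM in non-treatment CPBs and overlapped (adjusted p = 0.719). The other alpha-like gene (DN59566_c3_g1) had means of 2.85 ± 1.43 TPM in antibiotic and 3.19 ± 1.06 TPM in non-treatment CPBs, and its annotated domain is that of another protein family, so its name is doubtful.

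Acetylcholine receptor genes at the level in the antibiotic group only were alpha-like 1 (DN50687_c0_g1, alpha 1 in NR), alpha-like 2 (DN50034_c0_g1, alpha 2 in NR) and a muscarinic receptor, which acts through a G protein (DN57682_c0_g1). DN50687_c0_g1 lay at 4.25, 3.07 and 2.38 TPM in antibiotic libraries, against 0.324, 1.12 and 0.187 TPM in non-treatment libraries. DN50034_c0_g1 lay at 2.17, 3.08 and 2.27 TPM in antibiotic libraries, against 0.0346, 0.168 and 0.401 TPM in non-treatment libraries. The muscarinic gene lay at 1.24, 1.93 and 1.08 TPM in antibiotic libraries, against 0.0791, 0.158 and 0.188 TPM in non-treatment libraries. All 3 were taken up through their antibiotic level. A homolog of rapsyn (DN55710_c1_g2), the protein that gathers acetylcholine receptors at the vertebrate nerve-muscle synapse, lay at 2.62, 2.14 and 2.32 TPM in antibiotic libraries, against 0.133, 0.438 and 0.170 TPM in non-treatment libraries. All 7 nicotinic genes summed to between 43.8 and 55.0 TPM in antibiotic libraries and to between 16.1 and 24.3 TPM in non-treatment libraries. This sum includes DN50687_c0_g1 and DN50034_c0_g1, which were taken up through their antibiotic level, so it is a description and not a result.

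GABA receptors were few. The type B receptor subunit 2 (DN55071_c2_g1), part of a G protein receptor that dampens release, was the only one at the level in both groups, with 3.88, 3.36 and 1.88 TPM in antibiotic libraries against 0.626, 0.837 and 1.68 TPM in non-treatment libraries. The groups just failed to overlap, and the gene was not called (difference 0.98 ± 0.31, adjusted p = 0.0999), while all 4 count tests on 5 libraries called it higher (adjusted p = 0.0464 by edgeR). A GABA-gated channel gene named subunit alpha-5 (DN51060_c6_g1) had 1.62, 1.47 and 1.17 TPM in antibiotic libraries, against 0.229, 0.602 and 0.226 TPM in non-treatment libraries. Its cluster partner DN51060_c6_g3 was at 0.804, 2.26 and 0.508 TPM, against 0.0788, 0 and 0 TPM, with at most 20 estimated counts in a library, so its level is poorly known. The subunit beta-like gene (DN60218_c1_g3), which NR names a ligand-gated chloride channel, reached the level in the non-treatment group only, with 0.0617, 0.232 and 0.0579 TPM in antibiotic libraries against 6.52, 6.03 and 3.05 TPM in non-treatment libraries.

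Among amine receptors, 3 octopamine receptors were at the level, and no gene named dopamine, tyramine or serotonin receptor was. Octopamine is the arousal amine of insects, and its beta-type receptors raise cyclic AMP. The beta-3R receptor (DN63575_c2_g1) was lower in the antibiotic group, at 1.48, 1.79 and 0.376 TPM, against 11.5, 11.1 and 5.02 TPM in the non-treatment group. No antibiotic library reached the lowest non-treatment library, the non-treatment mean was 7.56-fold higher and the difference was -2.19 ± 0.39 (adjusted p = 0.0126). The call was lost without antibiotic replicate 1 (adjusted p = 0.0501) and without non-treatment replicate 2 (adjusted p = 0.0557). The gene had about 15.1 and 5.0 estimated counts in antibiotic replicates 2 and 3, against 298, 299 and 122 in non-treatment libraries.

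The general octopamine receptor (DN62565_c2_g1, octopamine receptor 1 in NR) lay at 7.26, 8.87 and 6.53 TPM in antibiotic libraries, against 4.22, 4.36 and 4.75 TPM in non-treatment libraries. The groups did not overlap, and the gene was not called (difference 0.64 ± 0.20, adjusted p = 0.0977), though it was with median-of-ratios scaling of the TPM (adjusted p = 0.0406). The beta-2R receptor (DN53569_c2_g1) overlapped fully, at 0.801, 1.20 and 2.06 TPM in antibiotic libraries and 2.58, 1.25 and 1.07 TPM in non-treatment libraries. Below the level, tyramine receptor 1 averaged 0.574 TPM in antibiotic and 0.484 TPM in non-treatment CPBs, and dopamine receptor 1 was listed at 0 TPM in antibiotic CPBs and averaged 0.375 TPM in non-treatment CPBs. Neither was tested.

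Neither enzyme of amine synthesis among the 97 genes was called. Tyrosine 3-monooxygenase (DN60026_c10_g1), the first and limiting enzyme on the way from tyrosine to dopamine and to cuticle pigment, lay at 13.2, 13.7 and 12.9 TPM in antibiotic libraries and at 14.6, 3.70 and 7.07 TPM in non-treatment libraries. The antibiotic libraries were close to each other, the non-treatment libraries spread around them, and the gene was not called (difference 0.76 ± 0.41, adjusted p = 0.304). Tyramine beta-hydroxylase (DN62241_c0_g5), which turns tyramine into octopamine, averaged 8.66 ± 0.83 TPM in antibiotic and 9.85 ± 0.81 TPM in non-treatment CPBs (difference -0.17, adjusted p = 0.636). Tryptophan 5-hydroxylase 1 (DN45981_c0_g1), the first enzyme on the way to serotonin, is not among the 97 names and reached the level in the antibiotic group only. It lay at 2.02, 1.83 and 1.34 TPM in antibiotic libraries, against 0.410, 0.247 and 0.146 TPM in non-treatment libraries.

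Dopamine N-acetyltransferases, which acetylate dopamine and other amines, held 1 higher gene among the 4 at the level in both groups and none called lower. DN59779_c1_g1, the only one of them whose NR match bears that name as well, lay at 11.0, 10.3 and 7.73 TPM in antibiotic libraries, against 1.74, 2.30 and 1.78 TPM in non-treatment libraries. The groups were far apart and the gene was higher by 1.85 ± 0.22 (adjusted p = 0.00272), a call kept with each library left out. DN48702_c0_g1, at the level in the non-treatment group only, was listed at 0 TPM in all 3 antibiotic libraries, against 83.7, 54.0 and 15.4 TPM in non-treatment libraries. A count of 0 in antibiotic replicates 2 and 3 allows up to 3 counts in each, against 2208, 1473 and 456 counts in the non-treatment libraries. DN59093_c6_g1 lay at 2.60, 3.18 and 5.53 TPM in antibiotic libraries, against 5.91, 44.9 and 41.5 TPM in non-treatment libraries. Non-treatment replicate 1 was close to the antibiotic libraries and the gene was not called (difference -2.37 ± 0.70, adjusted p = 0.0791). It was called lower without that library (-3.26, adjusted p = 0.0031) and with the replicate block (adjusted p = 0.0495), and was not in edgeR on 5 libraries (adjusted p = 0.151).

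The last of the family overlapped, with means of 10.3 ± 4.36 TPM in antibiotic and 12.5 ± 1.49 TPM in non-treatment CPBs for DN50999_c1_g1 and of 8.37 ± 3.05 TPM and 11.0 ± 5.25 TPM in these groups for DN53704_c2_g1. Summed over the 5 genes the level was between 28.0 and 37.1 TPM in antibiotic and between 89.9 and 121 TPM in non-treatment libraries. The sum was lower in the antibiotic group while 1 member was higher, and the sum rested on DN48702_c0_g1 and DN59093_c6_g1. DN48702_c0_g1 was taken up through its non-treatment level, which builds its difference into the sum, and DN59093_c6_g1 was not called. The lower sum is therefore a description and not a result. Gut genes moved with that sum (5358 to 7971 TPM in antibiotic, 10853 to 29770 TPM in non-treatment libraries), and their part in it was not tested.

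**Figure D4:**
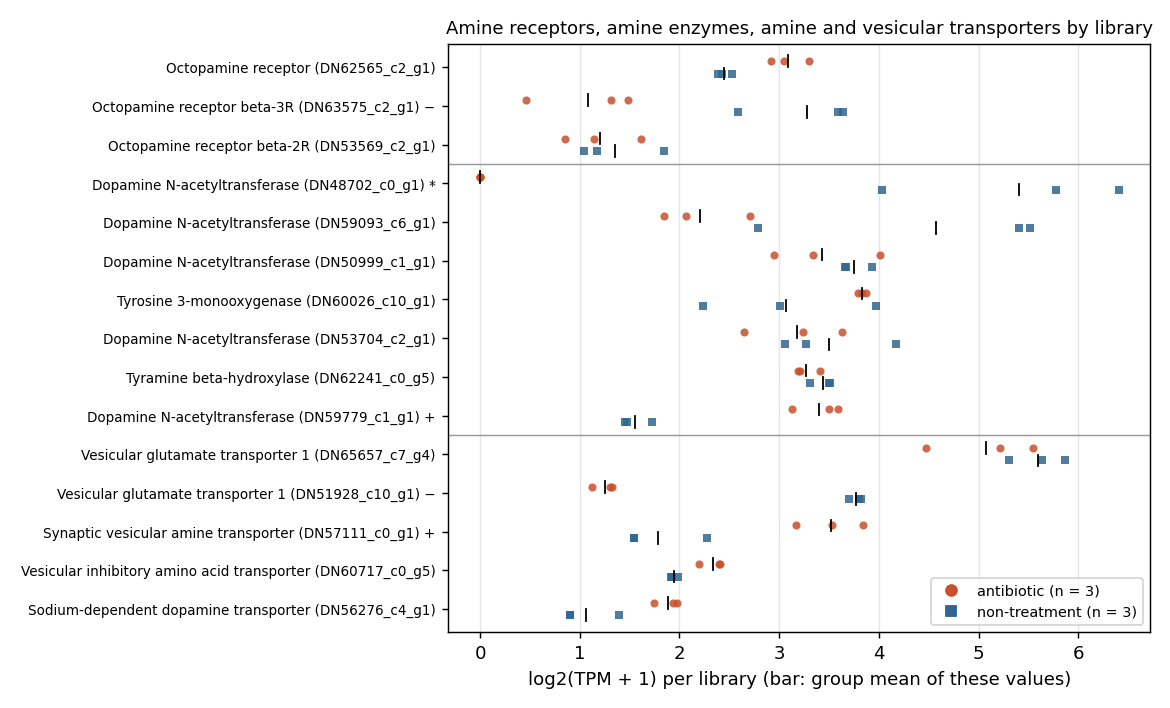
Amine receptors, enzymes of amine synthesis and turnover, and amine and vesicular transporters, one row per gene, with log2(TPM + 1) in each antibiotic library (orange circles) and each non-treatment library (blue squares), a bar at each group mean and the same marks as in the receptor plot. Octopamine receptor beta-3R and DN51928_c10_g1 lie lower in antibiotic, and the vesicular amine transporter and DN59779_c1_g1 lie higher.

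Transporters that fill vesicles were called in both directions. The synaptic vesicular amine transporter (DN57111_c0_g1), which loads dopamine, octopamine and serotonin into vesicles, lay at 8.01, 13.4 and 10.6 TPM in antibiotic libraries, against 3.85, 1.92 and 1.91 TPM in non-treatment libraries. The groups did not overlap, the antibiotic mean was 4.16-fold higher and the difference was 1.73 ± 0.29 (adjusted p = 0.0104). A gene named vesicular glutamate transporter 1 (DN51928_c10_g1) was lower, at 1.18, 1.47 and 1.51 TPM in antibiotic libraries against 12.9, 12.0 and 13.2 TPM in non-treatment libraries. The spread within each group was a small part of the gap, the non-treatment mean was 9.14-fold higher and the difference was -2.52 ± 0.20 (adjusted p = 0.000484). The protein family of this transporter also holds phosphate and anion carriers of other tissues. Both calls were kept with each library left out.

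A more abundant gene with the same name (DN65657_c7_g4) overlapped, at 21.3, 45.6 and 36.1 TPM in antibiotic libraries and 38.6, 57.2 and 48.6 TPM in non-treatment libraries (difference -0.52 ± 0.31, adjusted p = 0.35). The dopamine transporter (DN56276_c4_g1), which takes dopamine back up into the neuron, averaged 2.70 ± 0.32 TPM in antibiotic and 1.12 ± 0.43 TPM in non-treatment CPBs without overlap, and was not called (adjusted p = 0.0855), though it was in 2 of the 4 count tests. The transporter that loads GABA and glycine (DN60717_c0_g5) averaged 4.05 ± 0.41 TPM in antibiotic and 2.84 ± 0.09 TPM in non-treatment CPBs and was not called (adjusted p = 0.292). All 4 count tests called it higher, but they share the same 5 libraries. The count behind 1 TPM of this gene was also 1.62-fold higher in antibiotic libraries, so its counts and TPM differ in the size of the change. The vesicular acetylcholine transporter stayed below the level, listed at 0 TPM in antibiotic CPBs and at a mean of 0.0801 TPM in non-treatment CPBs.

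Synapsin-1 (DN50301_c0_g1), a phosphoprotein that tethers vesicles in reserve at the nerve terminal and marks neurons, was higher in the antibiotic group. It lay at 32.0, 39.6 and 41.5 TPM in antibiotic libraries, against 19.6, 20.8 and 18.4 TPM in non-treatment libraries. The groups did not overlap and the difference was 0.90 ± 0.19 (adjusted p = 0.0235). This call was kept only without antibiotic replicate 1, and the adjusted p reached 0.112 without antibiotic replicate 3. Of the SNARE genes none was called. Synaptosomal-associated protein 25 (DN53761_c0_g2), a SNARE of the plasma membrane, lay at 7.95, 16.1 and 12.0 TPM in antibiotic and at 7.49, 8.80 and 11.8 TPM in non-treatment libraries (difference 0.30 ± 0.29, adjusted p = 0.579). Synaptobrevin homolog YKT6 (DN61159_c3_g1), a SNARE of the Golgi and vacuole routes, averaged 8.36 ± 0.56 TPM in antibiotic and 11.7 ± 1.85 TPM in non-treatment CPBs (difference -0.44 ± 0.20, adjusted p = 0.232). The groups did not overlap for YKT6. Synaptosomal-associated protein 29, synaptophysin-like protein 1, synaptogyrin-2, synaptojanin-1, the SV2-related protein and both VAT-1 homologs overlapped between groups, with differences between -0.16 and 0.32.

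The SV2B-named genes split. SV2 proteins sit in the vesicle membrane of vertebrate nerve terminals, and their family of transporters also serves other tissues. The most abundant gene of all 97 in the non-treatment group (DN66006_c4_g1) was lower in the antibiotic group, at 68.3, 119 and 80.3 TPM, against 308, 443 and 1067 TPM in the non-treatment group. The non-treatment libraries spread widely and still lay above all antibiotic libraries, and the difference was -2.59 ± 0.46 (adjusted p = 0.0122). Its call was lost without antibiotic replicate 1 (adjusted p = 0.067) and in edgeR on 5 libraries (adjusted p = 0.0503). This gene made up between 4.12% and 5.91% of the summed TPM of the 97 genes in antibiotic and between 15.8% and 37.6% in non-treatment libraries.

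DN60669_c2_g1 was also lower, at 3.20, 3.43 and 2.77 TPM in antibiotic libraries, against 21.1, 43.4 and 30.1 TPM in non-treatment libraries. The non-treatment mean was 10.1-fold higher, and the difference was -2.92 ± 0.28 (adjusted p = 0.00113). DN55700_c1_g3, which NR names SV2C, was higher, at 9.32, 10.5 and 7.57 TPM in antibiotic libraries, against 0.824, 1.33 and 1.42 TPM in non-treatment libraries. The antibiotic mean was 7.64-fold higher, and the difference was 2.21 ± 0.23 (adjusted p = 0.00165). Both calls were kept with each library left out, so that genes of the same name differed in opposite directions.

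The pair DN59142_c5_g1 and DN59142_c5_g2 reached the level in the non-treatment group only. DN59142_c5_g2 had 0, 0.590 and 0 TPM in antibiotic libraries, against 12.6, 19.6 and 24.1 TPM in non-treatment libraries, and DN59142_c5_g1 had 0, 0.0847 and 0 TPM, against 5.83, 8.43 and 7.71 TPM. Both best match the same Tribolium protein as DN56757_c4_g1, which overlapped at 28.3, 43.6 and 23.7 TPM in antibiotic and 19.0, 20.8 and 23.9 TPM in non-treatment libraries (adjusted p = 0.266). DN65171_c0_g1 and DN54709_c4_g1 averaged 16.9 ± 4.26 and 16.4 ± 3.33 TPM in antibiotic, against 8.90 ± 0.83 and 8.62 ± 2.13 TPM in non-treatment CPBs. They did not overlap between groups and were not called (adjusted p = 0.0719 and 0.08), but were called higher in 7 and 4 of 20 alternatives. The lowest gene of the name, DN59809_c0_g1, had 0.943, 1.61 and 0.877 TPM in antibiotic libraries, against 0.112, 0.267 and 0.203 TPM in non-treatment libraries. Over its 10 genes the SV2B name summed to between 142 and 220 TPM in antibiotic and to between 396 and 1175 TPM in non-treatment libraries, a sum that followed DN66006_c4_g1. It includes genes taken up through 1 group and is a description and not a result. The gut gene sums given above were on the same side, and their part in the lower SV2B genes was not tested.

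**Figure D5:**
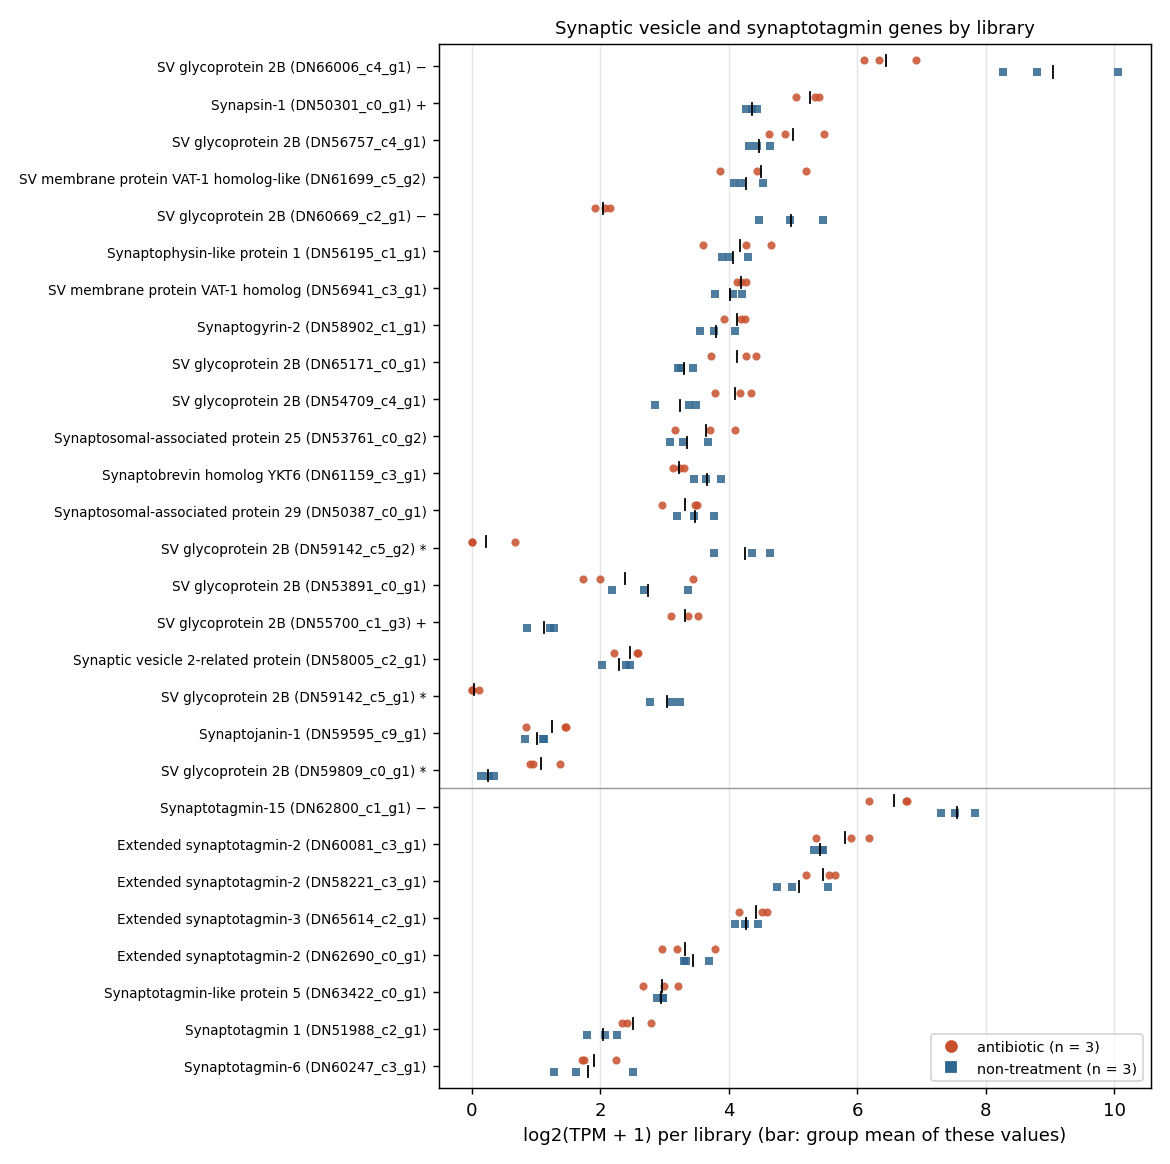
Vesicle membrane and SNARE genes (upper block) and synaptotagmins (lower block), one row per gene, with log2(TPM + 1) in each antibiotic library (orange circles) and each non-treatment library (blue squares), a bar at each group mean and the same marks as in the receptor plot. SV glycoprotein 2B rows lie on both sides, synapsin-1 lies higher in antibiotic, and most other rows show both groups together.

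Synaptotagmins, the calcium sensors of vesicle fusion, and the extended synaptotagmins, which tie the endoplasmic reticulum to the plasma membrane, gave 1 call among 8 genes. Synaptotagmin 1 (DN51988_c2_g1), the sensor for fast release, lay at 4.09, 5.96 and 4.32 TPM in antibiotic libraries, against 2.48, 3.20 and 3.82 TPM in non-treatment libraries. The groups came close without overlap, and the gene was not called (difference 0.47 ± 0.24, adjusted p = 0.281). On estimated counts of 5 libraries it was called higher in all 4 tests (1.14 on the log2 scale by edgeR, adjusted p = 0.0348). The extended synaptotagmins were the most abundant after synaptotagmin-15, summed to between 106 and 148 TPM in antibiotic and to between 94.6 and 118 TPM in non-treatment libraries, and none of the 4 was called.

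Synaptotagmin-15 (DN62800_c1_g1), a member not known to bind calcium in mammals, was lower on the TPM scale, at 71.8, 107 and 108 TPM in antibiotic libraries against 183, 157 and 228 TPM in non-treatment libraries. The TPM values did not overlap, and the difference was -0.98 ± 0.25 (adjusted p = 0.0471). The estimated counts of the gene were not lower, with 5804 and 3627 in antibiotic replicates 2 and 3 against 2367, 2147 and 3432 in non-treatment libraries, and the direction was reversed in the count tests (0.77 by edgeR, adjusted p = 0.119). The count behind 1 TPM of this gene was 2.99-fold higher in antibiotic than in non-treatment libraries, while it differed by less than 1.5-fold for 81 of the 84 members with at least 10 counts in each of 5 libraries. No direction can be given for synaptotagmin-15. The other exceptions were octopamine receptor beta-2R (1.76-fold) and the transporter of GABA and glycine (1.62-fold).

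None of the 6 adhesion genes at the level in both groups was called on TPM, and 2 of them were called higher under median-of-ratios scaling, without non-treatment replicate 3 and in the 4 count tests. Another 1 was called lower without non-treatment replicate 2 and in edgeR without a count filter. Neuroligins and neurexins hold the sides of a synapse together. Neurexin-4 (DN57161_c4_g1), in flies a protein of the septate junctions of epithelia and glia, lay at 18.3, 26.0 and 22.8 TPM in antibiotic and at 17.8, 20.0 and 16.7 TPM in non-treatment libraries (difference 0.27 ± 0.20, adjusted p = 0.463). The gene named neurexin-3, and neurexin-1 in NR (DN59846_c1_g3), averaged 3.70 ± 0.53 TPM in antibiotic and 1.44 ± 0.85 TPM in non-treatment CPBs without overlap (difference 0.99 ± 0.29, adjusted p = 0.0785), and was called higher in 6 of 19 alternatives.

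Both abundant genes that Swissprot names neuroligin-3 are esterases by their NR match. DN57566_c1_g1 lay at 39.2, 30.2 and 35.8 TPM in antibiotic and at 90.5, 38.6 and 67.3 TPM in non-treatment libraries, with overlap (difference -0.81 ± 0.32, adjusted p = 0.168). It was called lower in 2 of 20 alternatives (adjusted p = 0.0486 by limma without non-treatment replicate 2). DN58410_c2_g4, an integument esterase in NR, lay at 9.01, 30.017 and 17.6 TPM in antibiotic libraries, against 3.68, 2.39 and 7.34 TPM in non-treatment libraries (difference 1.82 ± 0.48, adjusted p = 0.0537). Its groups did not overlap, it missed the threshold narrowly, and it was called higher in 9 of 20 alternatives (adjusted p = 0.0259 by edgeR). Genes whose NR match is also a neuroligin stayed under 4 TPM in every library, and the pair DN58253_c3_g1 and DN58253_c3_g5 reached the level in the antibiotic group only. DN58253_c3_g1 had 3.44, 3.48 and 2.71 TPM in antibiotic libraries, against 0.509, 0.330 and 0.186 TPM in non-treatment libraries, and DN58253_c3_g5 had 1.14, 1.56 and 1.37 TPM, against 0, 0.136 and 0.0689 TPM. Of the other low neuroligin genes, DN63180_c2_g5 reached the level in the non-treatment group only with at most 14.0 counts in a library, and DN51539_c5_g3 in the antibiotic group only with at most 21.0 counts.

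The 7 multivesicular body proteins, GABA receptor-associated protein and the other trafficking genes included no call. GABA receptor-associated protein (DN59860_c2_g2) lay at 56.3, 60.1 and 67.3 TPM in antibiotic and at 55.8, 61.9 and 53.9 TPM in non-treatment libraries (difference 0.09 ± 0.18, adjusted p = 0.791). The multivesicular body proteins had differences between -0.46 and 0.44, and none was called. Synaptic functional regulator FMR1 (DN52294_c2_g2), an RNA-binding protein that holds back translation at synapses, averaged 19.4 ± 2.38 TPM in antibiotic and 19.0 ± 1.20 TPM in non-treatment CPBs (difference 0.02 ± 0.19, adjusted p = 0.96).

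Other genes of these pathways that the search words did not find were taken by name from a list of transmitter enzymes, uptake carriers, release proteins and channels. Of 113 such genes 31 were at the level in both groups, of which 6 were higher, 1 was lower and 24 were not called. Of all 22882 genes at the level in both groups 5.5% were called, with 2.83% higher and 2.67% lower. Excitatory amino acid transporter 3 (DN60228_c1_g1), which clears glutamate from the synapse, lay at 54.4, 40.6 and 50.3 TPM in antibiotic libraries, against 11.6, 15.4 and 17.0 TPM in non-treatment libraries (difference 1.67, adjusted p = 0.00363). ELAV-like protein 3 (DN51173_c6_g1), an RNA-binding protein of neurons, lay at 64.1, 67.9 and 85 TPM in antibiotic libraries, against 21.3, 22.1 and 25.2 TPM in non-treatment libraries (difference 1.61, adjusted p = 0.00268). The other higher genes were voltage-dependent calcium channels of type A (DN63219_c1_g1) and type D (DN58026_c1_g3), the calcium channel subunit DN59606_c2_g1 and glutamine synthetase 2 (DN53269_c2_g1). Of 15 genes named as such channels or their subunits 7 were tested, of which 3 were higher and 4 not called. Their sums overlapped, at 72.2 to 99.0 TPM in antibiotic and 70.0 to 111 TPM in non-treatment libraries. ELAV-like protein 3 is also among the neuron genes above, and excitatory amino acid transporter 3 and glutamine synthetase 2 are among the glia genes. Those calls are the same ones and not further results. The lower gene was named acetylcholinesterase (DN61647_c1_g1), with 0.935, 0.414 and 5.12 TPM in antibiotic libraries against 11.8, 140 and 32.4 TPM in non-treatment libraries. It was 1 of 9 genes with such a name, of which 6 were tested and 5 were not called. Acetylcholinesterase 1 (DN64284_c2_g1), among those not called, averaged 15.5 TPM in antibiotic and 19.0 TPM in non-treatment CPBs (adjusted p = 0.897).

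Core release genes of that list were not called. Complexin (DN53530_c2_g1), a clamp on the SNARE complex, lay at 94.3, 115 and 100 TPM in antibiotic and at 79.9, 76.6 and 88.8 TPM in non-treatment libraries (adjusted p = 0.327), without overlap. Protein ROP (DN61543_c1_g1) averaged 16.9 TPM in antibiotic and 11.2 TPM in non-treatment CPBs (adjusted p = 0.14). Rab-3 (DN59854_c8_g1) averaged 17.8 TPM and 9.85 TPM in these groups (adjusted p = 0.0904). Both lay higher in antibiotic libraries without overlap, while the tested syntaxin-1A and unc-13 genes overlapped. Histidine decarboxylase (DN54473_c3_g1), which makes the photoreceptor transmitter histamine, averaged 26.7 TPM in antibiotic and 21.7 TPM in non-treatment CPBs (adjusted p = 0.45), beside rhodopsin at 138 to 212 TPM in antibiotic and 0.252 to 0.639 TPM in non-treatment libraries. Genes of the list at the level in 1 group lay on both sides. Choline O-acetyltransferase (DN56671_c3_g1), which makes acetylcholine, reached the level in the antibiotic group only, at 1.63, 2.07 and 1.84 TPM, against 0.384, 0.413 and 0.422 TPM in the non-treatment group. A potassium voltage-gated channel gene (DN62360_c3_g1) reached it in the non-treatment group only, at 7.92, 8.29 and 2.29 TPM, against 0.538, 0.716 and 0.363 TPM in the antibiotic group.

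Summed over all 97 genes, the level was 1561, 2016 and 1948 TPM in antibiotic libraries and 1952, 1988 and 2839 TPM in non-treatment libraries, and the groups overlapped. The 31 transmitter receptors summed to 688 ± 61.7 TPM in antibiotic and to 486 ± 67.6 TPM in non-treatment CPBs (SD, n = 3 each). Without the delta-1 gene, the most abundant of them, the other 30 summed to 340 ± 11.9 TPM and to 146 ± 10.2 TPM in these groups. Both sums are descriptions that rest in part on genes taken up through 1 group. Without DN66006_c4_g1 and DN60078_c4_g1, the most abundant of the set, the remaining 95 genes summed to 1404 ± 182 TPM in antibiotic and to 1313 ± 77.0 TPM in non-treatment CPBs.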

How the data were processed

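RNA from whole heads of 3 antibiotic and 3 non-treatment CPB samples was sequenced on an Illumina platform. The authors deposited TPM values for 236706 Trinity-named genes in every library, made according to the paper through featureCounts, while the submitters' processing notes name FastQC, Salmon, DESeq2 and the mouse build mm10, which was not used here. The sources used here name no aligner and no versions. The authors also deposited estimated counts, of which 76.5% to 77.3% of those above 0 were whole. Counts of 5 libraries were used, those of antibiotic replicate 1 were not analysed here, and 2 further count columns were copies of another library's column and were left out.

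Groups came from the treatment labels alone. The main test was limma 3.58.1 in R 4.3.3, with trend = TRUE and no covariate, on log2(TPM + 1) of the 33919 genes with a mean of at least 1 TPM in a group, two-sided, with Benjamini-Hochberg adjustment over all of them. A log2 difference on this scale understates the change of low genes. Estimated counts, rounded to whole numbers, went into edgeR 4.0.16 and DESeq2 1.42.0 as alternatives, and the code was tested on simulated data. In all 20 alternatives were tried: other scalings, filters, pseudocounts (0.1 and 5), no trend, the screen of the study, a replicate block, each library left out, and the count tests. TPM carries no depth, and counting error was not modelled in the main test.

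Members, roles and lists were chosen with earlier results of these data known. Genes named by rule were the 3 of highest mean TPM in each role, the called gene of largest difference in each direction whose groups do not overlap, and listed key genes, 40 in all. Other genes named were chosen after their values were seen. No gene matched the RefSeq table by accession, so no coordinates or sequences are given.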

Additional observations from a re-analysis of the deposited data

How the results depend on the processing

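Among the 78 synaptic genes at the level in both groups, 13 were higher and 5 lower, or 13 and 4 with synaptotagmin-15 left out, a choice made after seeing the data. The higher count was 21 with DESeq2 and 22 with edgeR without a count filter, and the lower count was 3 with edgeR, each on 5 libraries. Leaving out 1 library gave 9 to 13 higher and 2 to 5 lower. Over all 97 genes the counts include 6 higher and 4 lower calls of genes taken up through the group where they were high, and they support nothing by themselves. There 19 higher became 12 with the cutoffs of the study's screen on limma p-values, 32 with DESeq2 and 33 with edgeR without a count filter. With 1 library left out 12 to 17 were higher, and 9 lower became 6 to 9. Over all 33919 genes, 976 higher became 492 with no filter on low values, 2121 with edgeR without a count filter and 512 to 855 with 1 library left out. There 2464 lower became 1642 with a minimum of 5 TPM, 4686 with edgeR without a count filter and 1204 to 3012 with 1 library left out. A stricter minimum or no filter changes how many genes are tested, and for the other settings the cause was not tested.

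Whether replicate numbers pair the libraries cannot be decided from 3 libraries in each group. Deviations of same-numbered libraries correlated at 0.13, -0.09 and 0.10, and those of differently numbered libraries at -0.17 to 0.08. With the replicate block 14 of the 97 genes were higher and 9 lower.

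Of 793 values for the 40 genes named by rule, 721 kept direction and side of the threshold, 31 lost the call (7 genes), 28 gained it (7 genes) and 13 reversed. The reversals were synaptotagmin-15 (DN62800_c1_g1), at 0.77 with edgeR, 0.80 with DESeq2, 0.77 with edgeR under DESeq2 size factors and 0.79 with edgeR without a count filter, and 2 genes not called. Octopamine receptor beta-2R (DN53569_c2_g1) gave 0.57, 0.61, 0.57 and 0.59 in the same order of tests, and -0.36 to 0.092 with 1 library left out, above 0 without antibiotic replicate 1 or non-treatment replicate 1. The delta-1 gene (DN60078_c4_g1) gave -0.043 without the 10 most abundant genes and -0.13 to 0.16 with 1 library left out, below 0 without antibiotic replicate 3 or non-treatment replicate 2. Of the 18 called genes at the level in both groups, 11 kept the call in every alternative that tested them. Low counts limit octopamine receptor beta-3R and the other low genes given with their counts.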
